A study of Mus musculus with 20 samples.

Results

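The genes described here are 10 amino acid transporter genes of mouse regulatory T (Treg) cells, followed across 7 treatment groups: Slc7a5, Slc3a2, Slc7a1, Slc7a6, Slc1a4, Slc1a5, Slc38a1, Slc38a2, Slc43a1 and Slc7a11. They were chosen by name, as the array rows that carry these gene symbols, out of 21928 genes with a symbol. The choice was made with earlier results of these data known. A gene with several probe sets would be read from the brightest, but each of these 10 has 1 probe set. A gene entered the tests when at least 2 of the 20 arrays read it brighter than the median probe set of that array. Of the 10 genes 8 passed, among 12462 genes that passed in all, and Slc1a4 and Slc7a11 did not. The 8 genes were above that median on all 20 arrays, and the other 2 on none.

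A T cell that is stimulated through its receptor grows and divides, and for that it imports amino acids through carriers in the plasma membrane. Slc7a5 is the light chain of the leucine and large neutral amino acid exchanger LAT1, and Slc3a2 is the heavy chain (4F2hc, CD98) that brings LAT1 and related light chains to the cell surface. Slc7a6 and Slc7a11 are further light chains that pair with Slc3a2. Leucine brought in by LAT1 is known to feed the growth kinase mTORC1, and Myc and ATF4 are known activators of several of these transporter genes. ATF4 binds the C/EBP-ATF response element, and Myc binds the E-box.

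Expression was measured on 20 microarrays of cells sorted from spleen and lymph nodes (pLN) of Foxp3YFP-Cre mice on the C57BL/6J background, in which the Foxp3 gene also drives YFP and Cre. The sort took CD4+ YFP+ cells that were low for CD44 and high for CD62L, which the labels call cTreg. The study addresses protein prenylation in Treg cells, the lipid modification by which small GTPases and other proteins attach to membranes. The inhibitors are called FTI and GGTI in the labels, the usual abbreviations for inhibitors of farnesylation and of geranylgeranylation, and neither the compounds nor their doses are named in the sources used here.

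DMSO_0h (3 arrays) has no stimulation in its labels and serves here as the fresh cells. DMSO_18h and DMSO_48h (3 arrays each) were cultured for 18 or 48 h with 10 ug/ml of antibodies to CD3 and CD28 and 200 U/ml of interleukin-2. FTI_18h (3 arrays), GGTI_18h (2 arrays), FTI_48h (3 arrays) and GGTI_48h (3 arrays) had 2 h of the inhibitor first and then the same stimulation with the inhibitor still present. The labels name no such first step for DMSO. No group was cultured without antibodies, so the antibodies, interleukin-2 and the hours in culture cannot be told apart. All groups carry the same Foxp3 reporter. Whether the replicates came from separate mice is not stated in the labels. The p-values therefore cover the spread between the arrays at hand, which may be technical, and precision is limited by the number of arrays. In such bulk samples, fewer cells of a type and less RNA per cell cannot be told apart. Whether the arrays of groups overlap is a description of 2 or 3 arrays per group and not a test. Its share over all tested genes was not counted.

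The labelled cell type was checked against its markers. Foxp3 group means were 10.67 to 11.2 on the log2 scale of the arrays, and Cd4, Cd3e, Ctla4 and Ikzf2 were also well above the negative-control probe sets, whose group medians averaged 5.17 to 5.64. Il2ra, the interleukin-2 receptor alpha chain that Treg cells usually carry, was the exception in DMSO_0h, at 5.04 against negative controls at 5.64, and was 6.89 to 7.66 in the cultured groups. Markers of other cells were uneven within each list. Per array the mean over 5 B cell markers was 5.55 to 6.51, over 7 myeloid and dendritic markers 5.47 to 6.07, over 5 CD8 T and NK markers 5.45 to 6.49 and over 5 red cell markers 5.63 to 6.8. By group, 1 to 3 of the B cell markers, 4 or 5 of the myeloid and dendritic markers, 2 of the CD8 T and NK markers and 1 or 2 of the red cell markers were at or below the negative controls, Csf1r, Lyz2, Ncr1 and Klrb1c among them in every group. Other markers were bright: group means were 9.98 to 10.76 for Cst3, 7.93 to 8.71 for Cd8b1, 6.77 to 8.42 for Cd74 and 7.59 to 8.21 for Slc4a1. Nkg7 went from 5.79 in DMSO_0h to 8.94 in DMSO_18h and 10.71 in DMSO_48h. On the DMSO_0h arrays the B cell mean was 6.13 to 6.51, against 5.55 to 5.88 in DMSO_48h. The red cell mean was 6.24 to 6.8 against 5.64 to 5.85, and the myeloid and dendritic mean 5.91 to 6.07 against 5.47 to 5.49. The CD8 T and NK mean went the other way, at 5.45 to 5.63 against 6.16 to 6.49. The part of these markers in the differences between DMSO_0h and DMSO_48h was not tested. The negative controls themselves were higher on the DMSO_0h arrays (medians 5.58 to 5.67) than on the others (4.94 to 5.32).

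Promoter sequence was at hand from RefSeq (build GRCm38.p6) for 7 of the 10 genes, in 9 windows of 300 bases that run from 250 bases before an annotated transcription start to 50 bases after it. No window was at hand for Slc7a5, Slc1a5 and Slc38a1. Each window was searched on both strands for TGATGNAA, the core of the C/EBP-ATF response element, and for CACGTG, the E-box; the 2 motifs do not overlap in any window shown. Slc3a2 and Slc43a1 are printed because they moved in opposite directions under GGTI, and Slc1a4 and Slc7a11 because they are the other genes of the set with a match. The windows are chr19:8713848-8714147 on the minus strand, chr2:84840073-84840372 on the plus strand, chr11:20332664-20332963 on the minus strand and chr3:50443564-50443863 on the minus strand. Each is written from 5′ to 3′ on the strand of its gene, with motif matches in capitals.
Slc3a2: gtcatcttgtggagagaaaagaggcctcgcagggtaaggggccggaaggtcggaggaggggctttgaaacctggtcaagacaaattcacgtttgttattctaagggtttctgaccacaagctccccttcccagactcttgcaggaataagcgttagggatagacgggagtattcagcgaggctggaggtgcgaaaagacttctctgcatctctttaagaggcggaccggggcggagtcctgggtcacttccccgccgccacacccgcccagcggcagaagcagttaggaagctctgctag
Slc43a1: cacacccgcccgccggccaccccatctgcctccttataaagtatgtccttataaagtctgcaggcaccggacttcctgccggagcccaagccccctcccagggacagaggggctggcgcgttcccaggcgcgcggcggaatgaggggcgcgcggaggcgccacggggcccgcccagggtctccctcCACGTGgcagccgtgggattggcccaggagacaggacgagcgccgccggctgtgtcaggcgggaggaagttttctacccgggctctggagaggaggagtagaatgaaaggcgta
Slc1a4: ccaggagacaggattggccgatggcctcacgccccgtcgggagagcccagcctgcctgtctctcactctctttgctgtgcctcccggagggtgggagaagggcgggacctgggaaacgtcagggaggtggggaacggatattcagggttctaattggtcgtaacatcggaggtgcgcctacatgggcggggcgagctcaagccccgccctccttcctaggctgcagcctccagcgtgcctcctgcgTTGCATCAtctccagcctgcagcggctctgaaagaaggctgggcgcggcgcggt
Slc7a11: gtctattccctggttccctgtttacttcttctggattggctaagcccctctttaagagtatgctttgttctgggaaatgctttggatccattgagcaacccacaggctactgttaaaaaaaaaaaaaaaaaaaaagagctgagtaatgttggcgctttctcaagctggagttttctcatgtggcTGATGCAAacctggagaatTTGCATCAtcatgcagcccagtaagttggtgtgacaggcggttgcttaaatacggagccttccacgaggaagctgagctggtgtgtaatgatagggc

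The Slc43a1 window holds 1 E-box, whose first letter lies 64 bases before the start. The Slc7a11 window holds the response element core on both strands, as TGATGCAA with its first letter 66 bases before the start and as TTGCATCA 47 bases before it. In the Slc1a4 window TTGCATCA spans the start itself, from 4 bases before it. No match to either motif was in the windows of Slc3a2, Slc7a1, Slc7a6 and Slc38a2. Of all 32851 promoter windows in the RefSeq table, 3.97% hold the response element core and 7.15% the E-box. A match describes letters in a window and is not a measured binding site.

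Within DMSO, the question was which transporter genes differ between fresh cells and cells 18 or 48 h into stimulation. At 18 h all 8 tested genes had changed, 7 higher and Slc38a2 lower, with a median log2 difference of 0.55 against 0.0 over all tested genes. Stimulation changed much of the array: 60.9% of all tested genes were called (adjusted p under 0.05, limma, Benjamini-Hochberg), and 33.7% of all tested genes were called higher. At 48 h against 0 h the same 7 genes were higher and Slc38a2 lower, with a median of 0.86 against -0.02 over all genes, with 74.7% of all tested genes called and 38.5% of all tested genes called higher. Both comparisons share the DMSO_0h arrays.

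**Figure D1:**
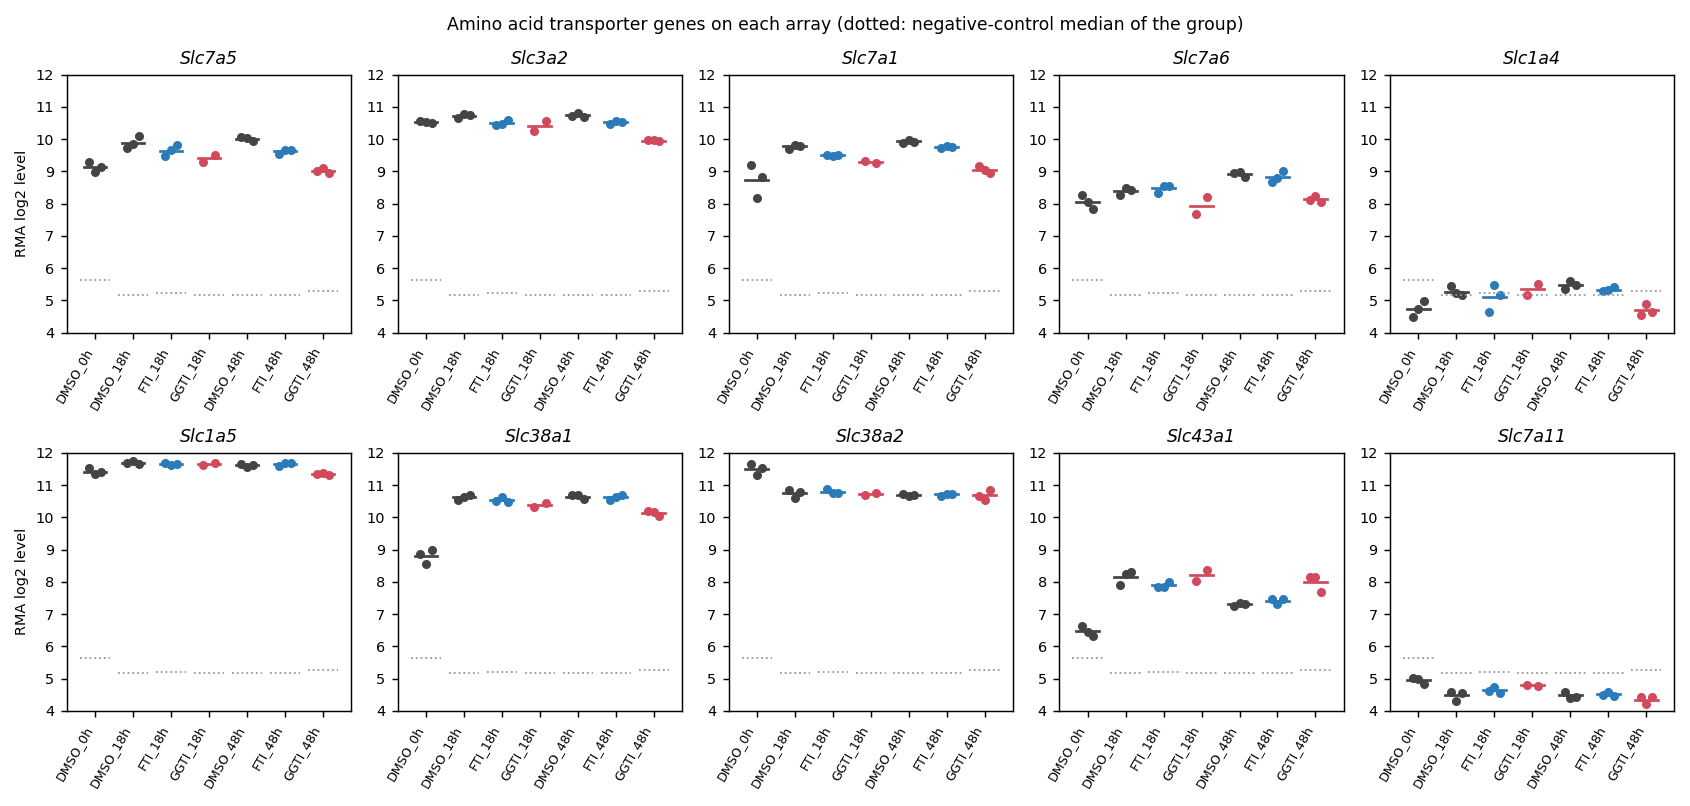
RMA log2 level (vertical axis, 4 to 12) of each of the 10 genes on every array (points), with the group mean (solid line) and the group's mean negative-control median (dotted line), for the 7 groups along the horizontal axis. Levels of different genes come from different probe sets and cannot be ranked against each other; Slc38a1 is lowest and Slc38a2 highest in DMSO_0h, and Slc7a11 lies below the dotted line in all 7 groups.

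Slc38a1 and Slc38a2 encode the sodium-coupled neutral amino acid transporters SNAT1 and SNAT2, which carry glutamine and alanine, and they moved in opposite directions. Slc38a1 read 8.85, 8.56 and 8.99 on the DMSO_0h arrays, 10.54, 10.62 and 10.7 at 18 h and 10.68, 10.69 and 10.56 at 48 h. Every stimulated array was above every fresh one, and the times overlapped. The difference was 1.82 ± 0.0944 (SE) at 18 h, a 3.52-fold rise (adjusted p = 1.26e-11), and 1.84 at 48 h. Slc38a2 read 11.66, 11.3 and 11.53 in DMSO_0h, 10.84, 10.6 and 10.78 at 18 h and 10.71, 10.67 and 10.68 at 48 h. The fresh arrays were the highest of the study for this gene and overlapped no other group. Slc38a2 fell by 0.76 ± 0.0945 at 18 h (adjusted p = 1.18e-06) and by 0.81 at 48 h. In the RefSeq annotation these genes are neighbours on chromosome 15, with 2 annotated genes, a pseudogene and a small nuclear RNA, between them.

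Slc43a1 encodes LAT3, a carrier of leucine and other neutral amino acids that works without Slc3a2, and its level rose and then came down. It read 6.64, 6.44 and 6.32 in DMSO_0h, 7.9, 8.24 and 8.29 in DMSO_18h and 7.24, 7.35 and 7.32 in DMSO_48h. The 3 groups did not overlap. The rise at 18 h was 1.68 ± 0.132 (3.2-fold, adjusted p = 3e-09), and at 48 h the level was 0.84 above the fresh cells. From 18 to 48 h it fell by 0.84 ± 0.132 (adjusted p = 0.00014). Slc7a6, the y+LAT2 light chain that exchanges cationic for neutral amino acids, went the other way between these times, reading 8.27, 8.49 and 8.43 at 18 h and 8.94, 8.99 and 8.83 at 48 h. Its groups at 18 and 48 h did not overlap, and the difference was 0.52 ± 0.129 (adjusted p = 0.0062). These were the 2 called genes of the 8 in DMSO_48h against DMSO_18h, where 29.1% of all tested genes were called, and the other 6 genes differed by -0.09 to 0.16.

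The LAT1 pair moved unequally. The light chain Slc7a5 read 9.3, 8.97 and 9.12 in DMSO_0h, 9.71, 9.86 and 10.09 at 18 h and 10.05, 10.03 and 9.95 at 48 h. No fresh array reached the stimulated ones, and the rise was 0.75 ± 0.109 at 18 h (1.69-fold, adjusted p = 7.26e-06) and 0.88 at 48 h. The heavy chain Slc3a2 read 10.57, 10.53 and 10.5 in DMSO_0h, 10.66, 10.77 and 10.74 at 18 h and 10.71, 10.81 and 10.68 at 48 h. It was also higher on every stimulated array, but by 0.19 ± 0.077 at 18 h (1.14-fold, adjusted p = 0.0378) and 0.2 at 48 h. The 18 h call for Slc3a2 was lost without DMSO_0h replicate 2 or 3 or DMSO_18h replicate 2 or 3 (differences of 0.17 to 0.22 over the arrays left out in turn). It was also lost with no filter, with quality weights and with only the compared arrays. Over all alternatives its adjusted p ranged from 0.00504 to 0.141. The 48 h call for Slc3a2 was lost without DMSO_0h replicate 3 or DMSO_48h replicate 2, with no filter and with only the compared arrays. Its adjusted p ranged from 0.000595 to 0.0996 over the alternatives.

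Slc7a1 encodes CAT1, the carrier of arginine and lysine. It read 9.18, 8.18 and 8.82 in DMSO_0h, 9.68, 9.83 and 9.79 at 18 h and 9.89, 9.98 and 9.91 at 48 h. The fresh arrays were wider apart (SD 0.5, n = 3) than those of the other groups (SD 0.02 to 0.1) and still below all stimulated DMSO arrays. The rise was 1.04 ± 0.152 at 18 h (adjusted p = 8.46e-06) and 1.2 at 48 h; without DMSO_0h replicate 2, the lowest array, the difference at 18 h was 0.77 and still called. Slc1a5, the glutamine and neutral amino acid exchanger ASCT2, read 11.52, 11.34 and 11.4 in DMSO_0h, 11.7, 11.75 and 11.65 at 18 h and 11.65, 11.56 and 11.61 at 48 h. Its rise was 0.28 ± 0.0647 at 18 h (adjusted p = 0.000982) and 0.19 at 48 h. The 48 h call for Slc1a5 was lost without DMSO_0h replicate 2 or DMSO_48h replicate 1 and with only the compared arrays. Its adjusted p ranged from 9.78e-05 to 0.0892 over the alternatives. Slc7a6 rose by 0.35 ± 0.129 at 18 h (adjusted p = 0.0244) and 0.87 at 48 h, and its 18 h call was lost without any of DMSO_0h replicates 2 and 3 and DMSO_18h replicates 2 and 3, with adjusted p from 0.00616 to 0.133 over the alternatives.

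**Figure D2:**
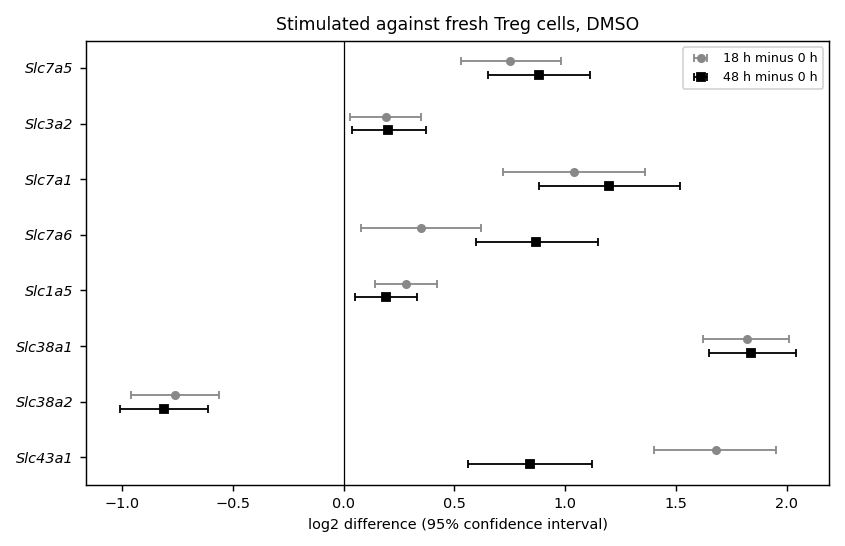
Log2 difference from DMSO_0h with its 95% confidence interval (horizontal axis) for the 8 tested genes (vertical axis), at 18 h (circles) and 48 h (squares), limma on all 20 arrays. Slc38a1 is highest at both times (1.82 and 1.84), Slc43a1 is lower at 48 h than at 18 h (0.84 and 1.68), and Slc38a2 alone lies below 0 (-0.76 and -0.81).

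Scaling matters for the small differences. Centring each array on its median moved the median over all tested genes to 0.11 at 18 h and 0.15 at 48 h, so values under that scaling are read against those shifts. All 8 genes kept their direction, with Slc3a2 at 0.3 and 0.38 and Slc38a2 at -0.65 and -0.63. Over all genes the centring changed the called genes from 4202 higher and 3392 lower to 4834 and 2518 at 18 h, and from 4798 and 4513 to 5668 and 3034 at 48 h. In DMSO_48h against DMSO_18h it changed them from 2047 higher and 1576 lower to 2668 and 951.

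GGTI at 48 h lowered 6 of the 8 tested genes against DMSO at the same time, raised Slc43a1 and left Slc38a2 uncalled. Over all tested genes 40.3% were called in this comparison and 21.9% were called lower, and the median log2 difference was -0.65 over the 8 genes against -0.01 over all genes. All 7 calls held in each alternative run, including the leaving out of each array in turn. The largest differences were in the LAT1 and CAT1 genes. Slc7a5 read 9.0, 9.1 and 8.95 in GGTI_48h against 10.05, 10.03 and 9.95 in DMSO_48h, so the groups were apart, and the GGTI_48h arrays overlapped those of the fresh cells. Slc7a5 fell by 0.99 ± 0.109 (1.99-fold, adjusted p = 7.77e-07).

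Slc3a2 read 9.96, 9.96 and 9.93 in GGTI_48h against 10.71, 10.81 and 10.68 in DMSO_48h. These were the 3 lowest readings of Slc3a2 in the study, below the fresh cells as well, although the difference from the fresh cells was not tested. Slc3a2 fell by 0.78 ± 0.077 (adjusted p = 1.95e-07). Slc7a1 read 9.15, 9.04 and 8.95 in GGTI_48h and Slc7a6 read 8.12, 8.24 and 8.06. Neither overlapped DMSO_48h, where Slc7a1 lay between 9.89 and 9.98 and Slc7a6 between 8.83 and 8.99. The differences were -0.88 ± 0.152 for Slc7a1 (adjusted p = 0.000135) and -0.78 ± 0.129 for Slc7a6 (adjusted p = 8.2e-05).

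The glutamine carriers differed less. Slc38a1 read 10.2, 10.16 and 10.05 in GGTI_48h and fell by 0.51 ± 0.0944 (adjusted p = 0.000263), and every array was still above the fresh cells. Slc1a5 read 11.33, 11.36 and 11.31 and fell by 0.27 ± 0.0647 (adjusted p = 0.00216). Slc38a2 read 10.67, 10.53 and 10.86 and overlapped DMSO_48h, with a difference of 0.0 and a 95% confidence interval of -0.2 to 0.2. Slc43a1 was the gene that rose: it read 8.15, 8.14 and 7.67 in GGTI_48h, all above the 7.24 to 7.35 of DMSO_48h. The rise was 0.69 ± 0.132 (adjusted p = 0.000385), and 0.84 without GGTI_48h replicate 3, the lowest array. The GGTI_48h readings of Slc43a1 overlapped those of DMSO_18h. Between GGTI_48h and DMSO_48h the mean over the red cell markers was 6.11 to 6.4 per array against 5.64 to 5.85, where Hba-a1 was called higher (7.98 against 5.92) and the other 3 tested red cell markers were not called. The mean over the CD8 T and NK markers was 5.63 to 5.9 against 6.16 to 6.49, where Nkg7 was called lower (7.24 against 10.71), Cd8b1 was called higher (8.71 against 7.93) and Cd8a was not called. The mean over the myeloid and dendritic markers was 5.66 to 5.77 against 5.47 to 5.49, where 1 of the 2 tested markers was called higher. Itgam of that list, which did not pass the filter, had a mean of 6.03 in GGTI_48h against 4.99 in DMSO_48h. The part of these markers in the GGTI differences was not tested.

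At 18 h GGTI gave smaller differences, on 2 arrays. Of the 8 genes 2 were called, both lower, against 5.94% of all tested genes. Slc7a5 read 9.28 and 9.52 in GGTI_18h against 9.71 to 10.09 in DMSO_18h, and Slc3a2 read 10.25 and 10.56 against 10.66 to 10.77, with no overlap in either. The differences were -0.49 ± 0.122 for Slc7a5 (adjusted p = 0.0237) and -0.31 ± 0.0861 for Slc3a2 (adjusted p = 0.0367). Both calls were lost without DMSO_18h replicate 2, without DMSO_18h replicate 3 and without GGTI_18h replicate 1. Both were also lost with no filter and with only the compared arrays. The Slc3a2 call was lost with centred arrays and with quality weights as well. Over the alternatives the adjusted p ran from 0.00544 to 0.326 for Slc7a5 and from 0.00674 to 0.569 for Slc3a2. The Slc3a2 difference was -0.16 without GGTI_18h replicate 1 and -0.47 without GGTI_18h replicate 2. Slc7a1 at 9.32 and 9.27 and Slc7a6 at 7.68 and 8.19 lay below all DMSO_18h arrays without passing the test, with differences of -0.47 (adjusted p = 0.117) and -0.46 (adjusted p = 0.0679). The arrays did not overlap for 5 of the 8 genes in this comparison, of which 2 were called. The share without overlap over all tested genes was not counted. Without GGTI_18h replicate 2 the Slc7a6 difference was -0.72 and passed, and without replicate 1 it was -0.21. Slc43a1 (0.07), Slc1a5 (-0.04) and Slc38a2 (0.0) were near 0, and Slc38a1 differed by -0.23 (adjusted p = 0.256).

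The change of the GGTI effect between 18 and 48 h was tested as an interaction, in which 9.51% of all tested genes were called. Of the 8 genes only Slc3a2 passed in the main test, with a GGTI effect 0.47 ± 0.115 lower at 48 h than at 18 h (-0.47, adjusted p = 0.0136). That call was lost without GGTI_18h replicate 2, where the value was -0.31. Slc7a5 (-0.51, adjusted p = 0.0599) and Slc43a1 (0.62, adjusted p = 0.0577) missed the threshold and passed under some alternatives. Slc7a1, Slc7a6, Slc1a5, Slc38a1 and Slc43a1 had passed against DMSO at 48 h and not at 18 h, and their GGTI effects were not shown to differ between the times.

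**Figure D3:**
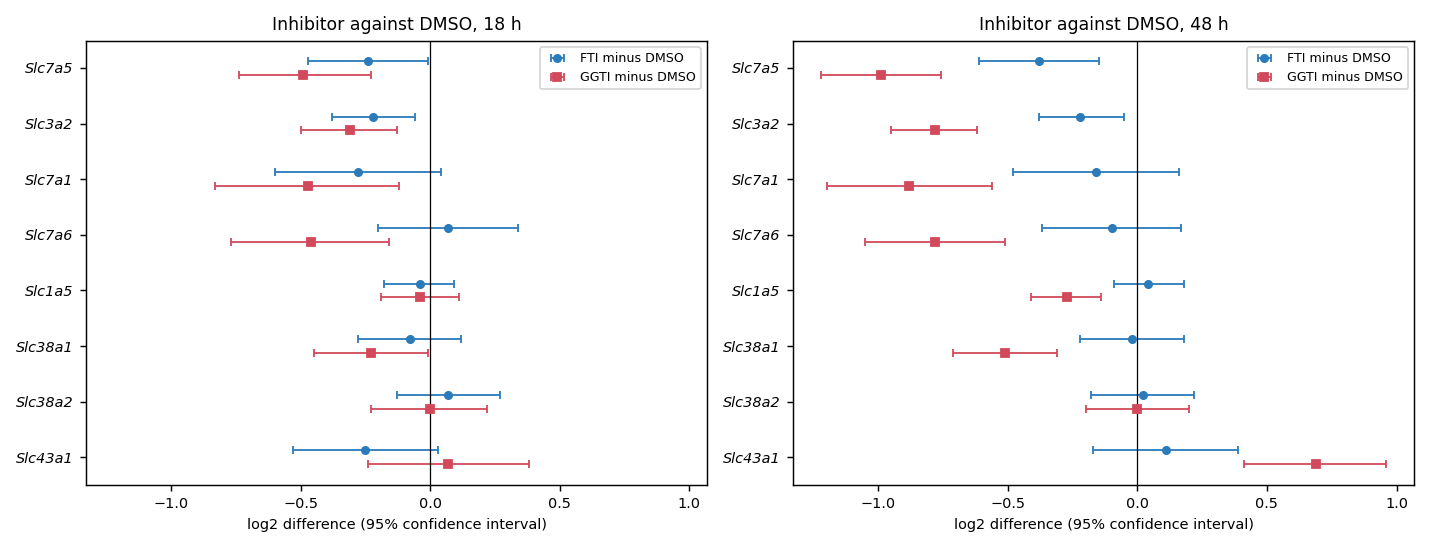
Log2 difference of FTI (circles) and GGTI (squares) from DMSO of the same time with its 95% confidence interval (horizontal axis) for the 8 tested genes (vertical axis), at 18 h (left) and 48 h (right). At 48 h the GGTI values lie between -0.99 for Slc7a5 and 0.69 for Slc43a1, and the FTI values between -0.38 and 0.11.

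FTI gave 1 call among the 8 genes at 48 h and none at 18 h. At 48 h, where 7.66% of all tested genes were called, Slc7a5 read 9.55, 9.66 and 9.67 in FTI_48h, below all DMSO_48h arrays, and fell by 0.38 ± 0.109 (adjusted p = 0.0393). This call was lost when any 1 of the 6 arrays was left out, with differences of -0.41 to -0.35 and adjusted p of 0.0702 to 0.151, and over all alternatives the adjusted p ran from 0.00647 to 0.151. Slc3a2 read 10.48, 10.55 and 10.52, also below all DMSO_48h arrays, with a difference of -0.22 (95% confidence interval -0.38 to -0.05, adjusted p = 0.0991). Slc7a1 read 9.73, 9.79 and 9.76, below all DMSO_48h arrays as well, with a difference of -0.16 (adjusted p = 0.576). The other 5 genes differed by -0.1 (Slc7a6) to 0.11 (Slc43a1). Over all genes, centring the arrays turned the FTI_48h calls from 571 higher and 384 lower to 411 and 512.

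At 18 h, where 3.3% of all tested genes were called, no gene of the 8 passed in limma. Slc7a5 and Slc3a2 had an unadjusted p under 0.05. The share of all tested genes under that unadjusted threshold was not counted for any comparison, so this describes only these genes. Slc7a5 read 9.46, 9.65 and 9.82 in FTI_18h and overlapped DMSO_18h, with a difference of -0.24 (adjusted p = 0.269). Slc3a2 read 10.43, 10.47 and 10.59, below all DMSO_18h arrays, with a difference of -0.22 (adjusted p = 0.131). The interval for Slc3a2 was -0.38 to -0.06. Slc7a1 read 9.5, 9.47 and 9.49, also below all DMSO_18h arrays, with a difference of -0.28 (adjusted p = 0.383). The other 5 differences were -0.25 (Slc43a1) to 0.07. In the interaction of FTI with time 0.433% of all genes were called, with none of the 8 genes and none at an unadjusted p under 0.05.

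The inhibitors were compared directly at each time, with doses that the labels do not give. At 48 h GGTI was lower than FTI for 6 of the 8 genes and higher for Slc43a1, against 27.5% of all genes called and 13.9% called lower. The differences were -0.61 for Slc7a5 (adjusted p = 0.000306), -0.57 for Slc3a2 (adjusted p = 1.77e-05), -0.72 for Slc7a1, -0.68 for Slc7a6, -0.49 for Slc38a1 and -0.32 for Slc1a5. Slc43a1 was 0.57 higher (adjusted p = 0.00284), and Slc38a2 differed by -0.02. At 18 h, where 2.29% of all genes were called, none of the 8 passed. An unadjusted p under 0.05 was seen for 2 of them, and the share of all genes under that threshold was not counted. Slc7a6 came nearest, with readings of 7.68 and 8.19 under GGTI against 8.33, 8.54 and 8.55 under FTI and a difference of -0.54 (adjusted p = 0.0588). The Slc7a6 difference was -0.28 without GGTI_18h replicate 1 and -0.79 without replicate 2, and it was called in that case, with quality weights and with trend and robust variances (adjusted p from 0.024 to 0.733 over the alternatives). The comparisons with DMSO and with FTI share the GGTI arrays.

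The groups were also put in order of their means, where a gap means that the arrays of neighbouring groups did not overlap. A gap is not a test. Slc7a1 had one between DMSO_48h and DMSO_18h, where the difference was 0.16 ± 0.152 and not called (adjusted p = 0.453, limma). For Slc7a5 the order ran DMSO_48h (10.01 ± 0.05, SD, n = 3), DMSO_18h, FTI_18h, FTI_48h, GGTI_18h, DMSO_0h and GGTI_48h (9.01 ± 0.08, n = 3), and only FTI_48h and GGTI_18h among the neighbours did not overlap. For Slc3a2 the order ran DMSO_48h, DMSO_18h, DMSO_0h, FTI_48h, FTI_18h, GGTI_18h and GGTI_48h, with gaps below DMSO_18h and above GGTI_48h. Slc38a1 had gaps around GGTI_18h (10.39 ± 0.1, n = 2), below GGTI_48h (10.14 ± 0.08, n = 3) and none among the FTI and stimulated DMSO groups. For Slc38a2 DMSO_0h (11.5 ± 0.18, n = 3) stood above the rest, whose means of 10.69 to 10.8 all overlapped their neighbours. Slc43a1 was highest in GGTI_18h (8.21 ± 0.25, n = 2), DMSO_18h, GGTI_48h (7.99 ± 0.27, n = 3) and FTI_18h, which overlapped in turn. A gap lay below FTI_18h, and Slc43a1 was lowest in DMSO_0h (6.47 ± 0.16, n = 3), which overlapped no other group. Slc7a1 had gaps between all neighbours except DMSO_18h and FTI_48h, and GGTI_48h and DMSO_0h, which overlapped. Slc7a6 had gaps between FTI_48h and FTI_18h and between DMSO_18h and GGTI_48h. In Slc1a5 the 5 other groups overlapped in turn and stood above DMSO_0h (11.42 ± 0.09, n = 3) and GGTI_48h (11.33 ± 0.02, n = 3), which overlapped each other.

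Slc1a4 and Slc7a11 did not pass the filter, so their sizes are limited by background. Slc1a4 encodes ASCT1, a carrier of alanine, serine and cysteine. Its means were 5.27 in DMSO_18h, 5.34 in GGTI_18h, 5.48 in DMSO_48h and 5.33 in FTI_48h, which were 0.1 to 0.29 above the negative controls, and below them in the 3 other groups. With no filter, Slc1a4 was 0.74 higher in DMSO_48h than in DMSO_0h (adjusted p = 0.00108) and 0.78 lower in GGTI_48h than in DMSO_48h (a log2 difference of -0.78, adjusted p = 0.00187). Slc7a11, the xCT light chain that exchanges cystine for glutamate, had group means of 4.35 to 4.95 and lay below the negative controls in all 7 groups. Its lower reading in DMSO_48h than in DMSO_0h (-0.47 with no filter, adjusted p = 0.000513) went with a drop of the negative controls from 5.64 to 5.18. Single negative controls spread around their median, so a probe set below it may still lie above its own background.

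The genes were also compared by the shape of their pattern, as the root mean square difference between 2 genes' 7 group means after each gene was centred on its own mean. This is a description over 7 groups whose arrays were normalized together. Slc7a5 and Slc7a1 were nearest each other within the set, at 0.156, and Slc1a5 was nearest Slc3a2, at 0.176. Slc38a1 and Slc38a2 were the most unlike pair, at 0.876. Slc43a1 had no gene of the set nearer than Slc38a1, at 0.445, and was the most unlike gene for Slc7a5, Slc3a2, Slc7a6 and Slc1a5. Among all other tested genes, those nearest Slc7a5 were Pnpt1 (0.0613), Got1 (0.076) and Nrp2 (0.0821), and those nearest Slc3a2 were Hspa5 (0.0633), Prpsap2 (0.0661) and Dusp12 (0.0718).

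A list of 37 other plasma membrane transporters gave 19 tested genes. In DMSO_48h against DMSO_0h 3 were higher and 9 lower, with a median of -0.3, against 7 higher and 1 lower in the set of 8. Over all tested genes 74.7% were called and 38.5% were called higher. The set and the lists were chosen with earlier results of these data known, so the contrast between them is only a description. Slc43a3, a relative of Slc43a1 that is known to carry purine nucleobases and not amino acids, rose by 3.11 ± 0.156 (8.63-fold). Slc3a1, a heavy chain like Slc3a2 that serves cystine and dibasic amino acid transport in kidney, fell by 3.4 on the log2 scale, from 8.15 to 4.75, a size that is limited by background. Slc43a2 (LAT4) fell by 0.87 and Slc7a10 (Asc-1) fell by 0.65. Under GGTI at 48 h 3 of the 19 were higher and 2 lower, with a median of -0.02. Over all tested genes 40.3% were called there and 21.9% were called lower. Slc43a2 was 0.68 higher, as its relative Slc43a1 was, Slc3a1 was 1.06 higher (limited by background in DMSO_48h), and the taurine transporter Slc6a6 fell by 0.29.

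A list of 22 lysosomal and mitochondrial carriers gave 20 tested genes, of which 8 rose and 8 fell by 48 h in DMSO, with a median of -0.05. These counts are near the shares over all tested genes, of which 74.7% were called and 38.5% were called higher. Sfxn1, the mitochondrial serine carrier, rose by 3.24 ± 0.132 (9.44-fold), Slc36a4 rose by 1.47 and Slc25a15, the mitochondrial ornithine carrier, by 1.32. The glutamate carrier Slc25a18 fell by 1.03, from 6.35 to 5.32, which is only 0.14 above the negative controls of DMSO_48h. With GGTI at 48 h 4 of the 20 were higher and 5 lower, also near the 40.3% of all tested genes called and 21.9% called lower. Slc17a9, known as a vesicular carrier of nucleotides and not of amino acids, was 1.73 higher, and Sfxn3 was 1.22 higher. The aspartate and glutamate carrier Slc25a13 fell by 0.86, to 5.7 in GGTI_48h, which is 0.42 above the negative controls of that group.

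**Figure D4:**
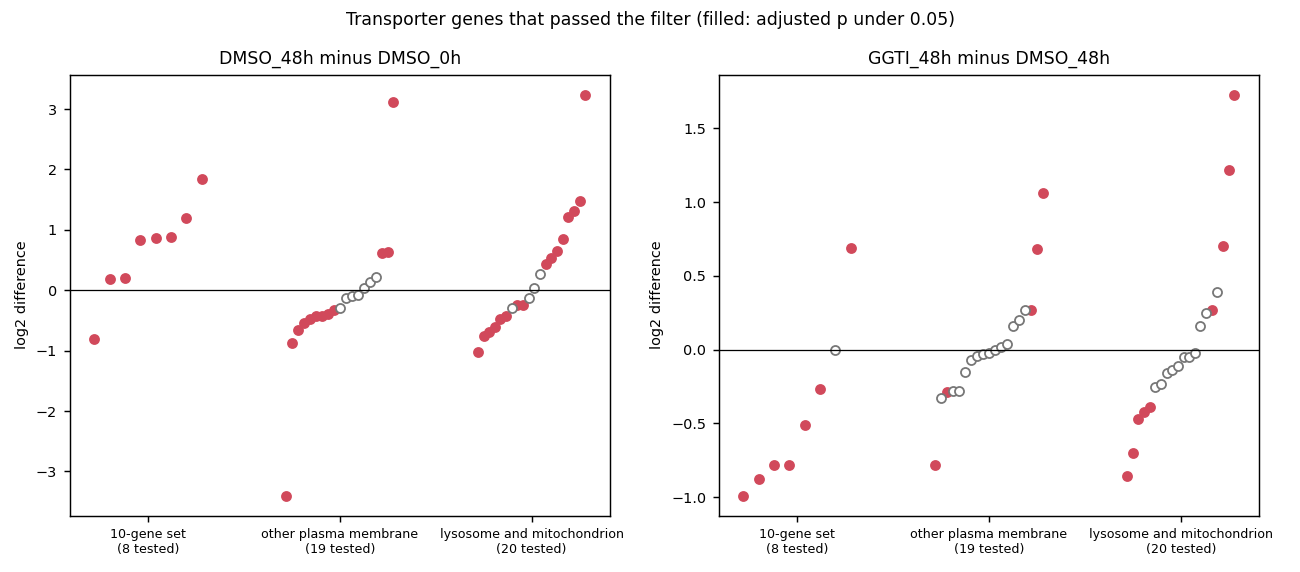
Log2 difference (vertical axis) of each tested gene in the 10-gene set (8 tested), the other plasma membrane transporters (19 tested) and the lysosomal and mitochondrial carriers (20 tested), for DMSO_48h minus DMSO_0h (left) and GGTI_48h minus DMSO_48h (right), ordered within each list; filled points have an adjusted p under 0.05. In the left panel 7 of 8, 3 of 19 and 8 of 20 genes are filled above 0, and in the right panel 6 of 8, 2 of 19 and 5 of 20 are filled below 0. Over all tested genes 38.5% were called higher in the left comparison and 21.9% lower in the right one. The set and the lists were chosen with earlier results of these data known.

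Regulators and response genes of amino acid and cystine supply, 15 tested of 19 listed, did not follow a common direction: by 48 h in DMSO 6 were higher and 6 lower, and under GGTI at 48 h 4 were higher and 6 lower. Over all tested genes 74.7% were called in the DMSO comparison and 40.3% in the GGTI one. Asns, the asparagine synthetase that ATF4 is known to activate, rose by 1.43 at 18 h and 1.52 at 48 h and fell by 1.59 ± 0.177 with GGTI at 48 h (adjusted p = 9.63e-07). Its GGTI effect differed between 48 and 18 h by -1.12 (adjusted p = 0.0111), a call that was lost without GGTI_18h replicate 2. Atf4 itself differed by -0.02 in DMSO_48h against DMSO_0h and fell by 0.52 with GGTI at 48 h (adjusted p = 0.0116), which was not called without GGTI_48h replicate 2 (-0.4). Trib3 and Ddit3, further known targets of the ATF4 pathway, went the other way from Asns, with Trib3 1.76 ± 0.0841 higher (adjusted p = 3.03e-11) and Ddit3 0.48 higher under GGTI at 48 h. Trib3 was also 0.45 higher with GGTI at 18 h, a call that was lost without GGTI_18h replicate 2.

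Myc rose by 1.25 at 18 h and 1.16 at 48 h of stimulation, and differed by 0.03 with GGTI at 48 h (adjusted p = 0.941). Without DMSO_0h replicate 2 the Myc rises were 0.73 and 0.64, and both were still called. Among the genes tied to cystine use and the transcription factor NRF2, Txnrd1, the thioredoxin reductase, rose by 1.96 at 18 h and 1.92 at 48 h, and Gclm, the modifier subunit of glutathione synthesis, by 0.65 and 0.53. Gclc, the catalytic subunit, went the other way and is named after its values were seen: it fell by 0.25 at 18 h and by 0.67 at 48 h, and was 1.02 higher with GGTI than with DMSO at 48 h. Its 18 h call was lost without DMSO_0h replicate 1 (-0.17), DMSO_0h replicate 3 or DMSO_18h replicate 1. Nfe2l2, which encodes NRF2, fell by 0.29 at 48 h, which was not called without DMSO_0h replicate 3 (-0.2). Txnrd1 was the gene of these that fell with each inhibitor at 48 h, by 0.43 with FTI and by 0.41 with GGTI, and fell by 0.51 with FTI at 18 h. Its FTI call at 48 h was lost without DMSO_48h replicate 1 or 2 or FTI_48h replicate 1, and that at 18 h without DMSO_18h replicate 3 or FTI_18h replicate 1.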

How the data were processed

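The 20 Affymetrix mouse arrays were put in 7 groups by treatment and hour as labelled. RNA (RNeasy Micro) was amplified from 1 to 20 ng with the NuGEN WTA Pico v2 kit and biotinylated with Encore Biotin reagents, per the labels. The authors made the deposited log2 values with RMA in Affymetrix Expression Console 1.1, per the submitters' processing notes. RMA as a method corrects background, brings arrays to a common distribution and summarizes probes. The 2 deposited tables differed by at most 1.8e-15, so 1 was used. Within groups the arrays correlated at 0.9785 to 0.9943 across genes, and no pair of arrays was a copy (smallest mean absolute difference 0.169 log2).

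Of 28846 probe sets, 22202 have 1 gene symbol. Symbols of 20468 probe sets were matched by accession to a RefSeq table (GRCm38.p6), the others kept the symbol of the file, and the resulting 21928 genes were each read from the brightest probe set. The tests came from limma 3.58.1 under R 4.3.3, fitting 1 mean per group to all 20 arrays (residual degrees of freedom 13, prior 4.98, residual SD with a median of 0.136), 2-sided, Benjamini-Hochberg over 12462 genes at 0.05; values after ± are standard errors unless called SD. The code was tested on simulated data. Signal over background limits dim genes: a group mean at or below that of the group's negative-control medians is called limited by background.

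Alternatives were no filter, centred arrays, only the compared arrays, quality weights, trend and robust variances, the mean of all probe sets, and leaving out each array. Named genes were the 10 transporters, up to 4 and 3 genes per transporter list by smallest p in DMSO_48h minus DMSO_0h and in GGTI_48h minus DMSO_48h, 8 regulators, and the 3 genes nearest in pattern to Slc7a5 and Slc3a2; for Slc7a11, which the rule also names, none were taken because it did not pass the filter. Members and lists were chosen with earlier results of these data known. Sequences and motifs came from RefSeq promoter windows; figures were drawn with matplotlib 3.10.9.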

Additional observations from a re-analysis of the deposited data

Results flagged for a closer look

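Slc3a2, the heavy chain shared by LAT1 and related transporters, was called in the interaction of GGTI with time, at -0.47 on the log2 scale (adjusted p = 0.0136, limma). It was the 1 gene called of the 8, where 9.51% of all tested genes were called. Slc7a5 (-0.51, adjusted p = 0.0599) and Slc43a1 (0.62, adjusted p = 0.0577) had values larger in size that were not called, so the change is not shown to be particular to Slc3a2. The GGTI difference of Slc3a2 from DMSO was -0.31 at 18 h, on 2 GGTI arrays that read 10.25 and 10.56. At 48 h it was -0.78, on 3 arrays that read 9.96, 9.96 and 9.93. The difference between times rests in part on GGTI_18h replicate 2, since without it the value was -0.31 with an adjusted p of 0.138; over all alternatives the adjusted p ran from 0.00157 to 0.138.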

How the results depend on the processing

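Each value of the 8 tested genes was recomputed under every alternative, 1128 values in all: 1071 kept their direction or stayed uncalled, 38 lost their call, 19 gained one, and none was called in the opposite direction, while 40 values that were uncalled in both had the other sign. In several alternatives the log2 difference of these genes could not change, so those runs could not reverse a direction. They were no filter, only the compared arrays, trend and robust variances, and the mean of all probe sets, as each gene has 1 probe set. No paired analysis was possible because the labels carry no replicate numbers. Called genes of the 8 stayed within 1.5 times the main count in each alternative for the DMSO comparisons, for GGTI_48h against DMSO_48h and FTI_48h (7 in each) and for the FTI interaction. For FTI_18h against DMSO_18h, 0 genes became 1 with trend and robust variances. For GGTI_18h against DMSO_18h, 2 became 0 with no filter, 1 with centred arrays and 0 with only the compared arrays, and leaving out arrays gave 0 to 3. With quality weights that count stayed at 2, but Slc7a1 was called in place of Slc3a2. For FTI_48h against DMSO_48h, 1 became 0 with no filter, 2 with quality weights and 2 with trend and robust variances, and leaving out any array gave 0 to 0. For GGTI_18h against FTI_18h, 0 became 1 with quality weights and 1 with trend and robust variances, and leaving out arrays gave 0 to 1. For the GGTI interaction, 1 became 3 with quality weights, 4 with trend and robust variances and 2 with only the compared arrays, and leaving out arrays gave 1 to 2. The cause was not tested.

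Over all genes, calls moved by more than 1.5 times in these cases. Those of FTI_18h against DMSO_18h went from 411 to 183 with no filter, to 36 with only the compared arrays and to as few as 151 with an array left out. Those of GGTI_18h against DMSO_18h went from 740 to 443, 130 and 201 in the same order. Those of FTI_48h against DMSO_48h went from 955 to 2124 with quality weights and 524 with an array left out. Those of GGTI_18h against FTI_18h went from 285 to 436 with quality weights, 69 with only the compared arrays and 70 with an array left out. Leaving out an array gave 2280 for DMSO_48h against DMSO_18h (3623), 691 for the GGTI interaction (1185) and 28 for the FTI interaction (54), which had 87 with quality weights and 85 with trend and robust variances.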
